A study of Homarus americanus with 19 samples.

Results

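The abundant noncoding transcripts of American lobster (Homarus americanus) larvae described here are the 200 transcripts with the highest mean level in 6 control larvae among the 5287 noncoding transcripts of the 46006 RefSeq transcripts counted with Kallisto. Noncoding transcripts carry the RefSeq prefix XR_ and predicted mRNAs the prefix XM_. Levels are in CPM, the estimated count of a transcript per 1000000 counts of that larva, and are shares of counts that were not divided by transcript length, so a comparison between transcripts is one of shares. The single noncoding transcript with the highest total over all larvae, a long noncoding RNA (lncRNA) of the gene LOC121857831, was left out by the rule. It alone took between 7.44% and 28.0% of the counts of a larva. Because the control larvae chose the members, their levels in control larvae are a description, and the comparisons of exposed with control larvae are not independent of that choice.

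RNA was extracted from homogenized whole larvae, and each of the 19 libraries came from its own larva. The control class held 6 larvae kept in seawater passed through a 0.22 µm filter, the methylnaphthalene class held 6 larvae exposed to 1-methylnaphthalene at 0.3 mg/L as a positive control, and the WAF class held 7 larvae kept in a 72% WAF, which is the water accommodated fraction made from crude oil. Exposure lasted 24 h. The dose of 1-methylnaphthalene is the one in the labels, and the supplement of the study names a somewhat higher one. The labels give no genotype, parent or litter, so the larvae of a class may or may not be siblings. They also put the animals at embryonic day 9, whereas the study describes larvae of stage I. The libraries held between 14295653 and 44466373 counts, which sets the counting error of each value. The smallest rounded count of any of the 200 transcripts in any larva was 10. Of the genes expected in a whole larva, 15 named hemocyanin, the oxygen carrier of crustacean blood, summed to 182 to 1256 CPM in control, 2829 to 19639 CPM in methylnaphthalene and 62.1 to 14040 CPM in WAF larvae. The 12 named trypsin, a digestive enzyme, summed to 65.1 to 175, 210.4 to 380 and 53.1 to 281 CPM in the same order. The 22 named cuticle protein had 1121 to 3446, 672 to 1968 and 1082 to 2357 CPM, and 1 troponin gene, of the muscle filament, had 4546 to 5892, 2130 to 4718 and 2383 to 4948 CPM. These levels moved with class: the hemocyanin and trypsin sums of methylnaphthalene larvae lay above all control larvae, and the medians of cuticle protein and troponin were lower in both exposed classes. The median hemocyanin sum was 381 CPM in control, 9317 CPM in methylnaphthalene and 134 CPM in WAF larvae. For trypsin the medians were 92.3, 311 and 83.5 CPM in the same order. Gene names came from the top of a list in which the study ranked genes by their difference between methylnaphthalene and control in these larvae, so the markers are not independent of the classes, and their part in the members' results was not tested. A further muscle gene, the 1 named actin, muscle, had only 1.82 to 9.79 CPM in control, 0.58 to 3.12 CPM in methylnaphthalene and 0.95 to 10.5 CPM in WAF larvae. Names were at hand for only part of the genes, and none matched tropomyosin or myosin heavy chain.

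Noncoding transcripts do their work, where they have any, as RNA and not as templates for protein. Ribosomal RNA (rRNA) forms the body of the ribosome and is copied from many near-identical genes. A transcribed pseudogene is a copy of a gene that no longer encodes an intact protein but is still made into RNA, and a noncoding transcript of a protein-coding gene is a spliced form without an accepted reading frame. An lncRNA is a long transcript of a gene with no known protein, and for most of them no function is known in crustaceans. The sequences of these transcripts were not used here, so none is printed.

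The 200 transcripts came from 190 genes. By annotation, 131 were lncRNAs, 45 were noncoding transcripts of protein-coding genes, 20 were rRNAs and 4 were transcribed pseudogenes. lncRNAs made up 65.5% of the members and 61.0% of all noncoding transcripts. Of the 5 transcribed pseudogenes among all noncoding transcripts, 4 were members. No small nuclear RNA (203 in the table), small nucleolar RNA (79) or guide RNA (1) was a member, and the highest control mean among them was 4.21 CPM, held by a small nuclear RNA. For 128 members, the transcript was the only one of its gene.

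Within the 200, levels were uneven. The median control mean was 70.6 CPM, 121 members had a mean under 100 CPM, and the 5 highest had means of 1282 CPM or more. The pseudogene LOC121871017 stood first with 29915 ± 3118 CPM in control larvae (mean ± SD, n = 6). A pair of noncoding transcripts of the protein-coding gene LOC121876248 came next, XR_006090735.1 with 7766 ± 1467 CPM and XR_006090739.1 with 2498 ± 2741 CPM. The pseudogenes LOC121866759 and LOC121867733 followed, with 1503 ± 188 and 1282 ± 374 CPM. At the lower end, the lncRNAs LOC121854346 and LOC121857190 were the last inside the rule, with 33.6 and 33.5 CPM, and LOC121860737 (33.2 CPM) and LOC121874241 (33.1 CPM) lay just outside it.

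**Figure D1:**
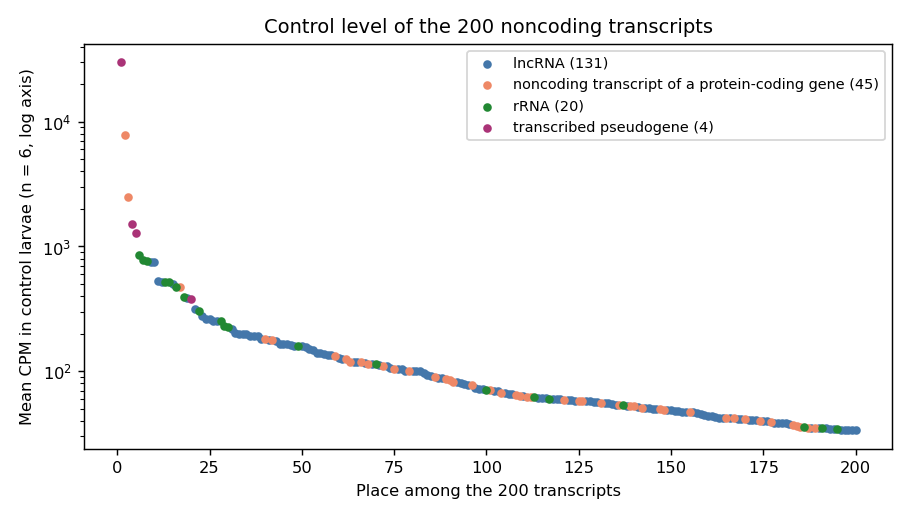
Mean CPM in the 6 control larvae on a log axis (vertical) against the place of each transcript among the 200 (horizontal), with 1 point per transcript coloured by annotated kind. The level drops from 29915 CPM at the first place to 33.5 CPM at the last, and all 4 pseudogenes are in the upper part of the order.

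Together the 200 transcripts held between 5.98% and 7.78% of the counts of a larva. The share had a median of 6.69% in control larvae (6.22% to 7.48%), 6.78% with methylnaphthalene (6.26% to 7.59%) and 6.46% with WAF (5.98% to 7.78%). These ranges overlapped almost fully. Once the left-out transcript was set aside, the members held between 80.2% and 86.5% of the remaining noncoding counts in every larva. Their first 3 transcripts alone held between 55.5% and 66.1% of the members' counts, all from LOC121871017 and LOC121876248.

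**Figure D2:**
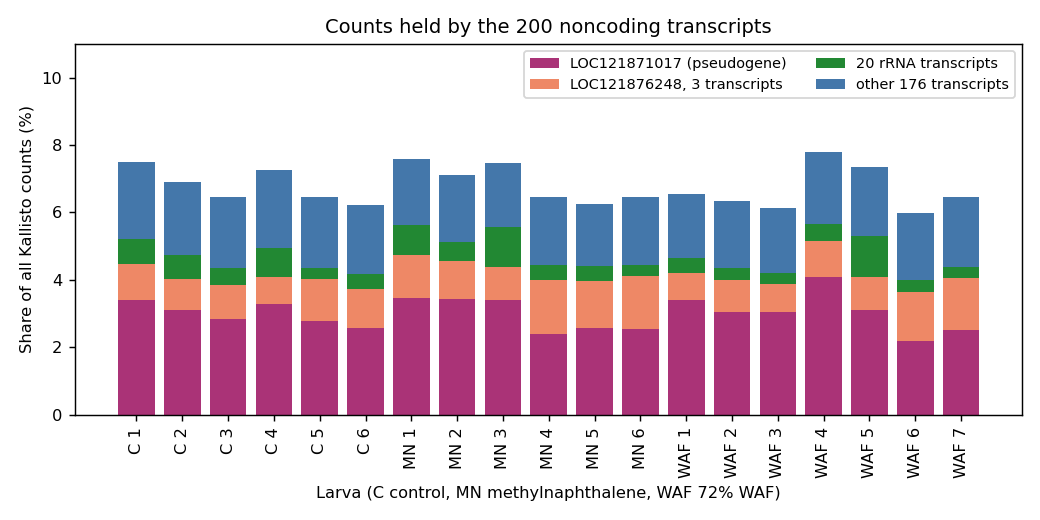
Share of all Kallisto counts (percent, vertical) held by the 200 transcripts in each larva, stacked as LOC121871017, the 3 member transcripts of LOC121876248, the 20 rRNAs and the other 176. The full bars lie between 5.98% and 7.78% in all 3 classes, and the rRNA block is tallest in methylnaphthalene larva 3 and WAF larva 5.

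The pseudogenes were compared first. LOC121871017 had 33867, 30942, 28315, 32759, 27781 and 25826 CPM in control larvae 1 to 6. With methylnaphthalene it had 34481, 34324, 34086, 23836, 25562 and 25389 CPM, and with WAF 33934, 30568, 30554, 40801, 30992, 21916 and 25182 CPM. All classes overlapped. Control larvae 5 and 6, methylnaphthalene larvae 4 to 6 and WAF larvae 6 and 7 were the lowest of their classes. Its log2 fold change was 0.04 (SE 0.24) with methylnaphthalene and 0.18 (SE 0.23) with WAF, and neither passed the test (edgeR quasi-likelihood test, Benjamini-Hochberg adjusted p = 1.00 and 0.993).

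LOC121867733, the pseudogene named heat shock protein HSP 90-alpha-like after a chaperone that helps other proteins fold, had 1543, 1223, 1349, 1825, 887 and 867 CPM in control larvae. With methylnaphthalene the values were 689, 714, 529, 1047, 642 and 903 CPM, and with WAF 524, 644, 560, 926, 668, 926 and 629 CPM. The control values of larvae 1 to 4 lay above all exposed larvae, while those of larvae 5 and 6 lay within the exposed range. The log2 fold change was -0.78 (SE 0.23) with methylnaphthalene and -0.80 (SE 0.22) with WAF, with adjusted p = 0.0939 and 0.419 over all transcripts in edgeR's quasi-likelihood test. When counts were summed per gene, which leaves 18729 features to adjust over, the methylnaphthalene difference passed at adjusted p = 0.0303 (edgeR). The fourth pseudogene, LOC121853591, which the rule for named transcripts did not pick and which was chosen after its values were seen, had 378 ± 144 CPM in control larvae, 249 ± 118 CPM with methylnaphthalene and 172 ± 89.2 CPM with WAF (adjusted p = 0.548 and 0.474, edgeR).

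Of the 45 noncoding transcripts of protein-coding genes, those of LOC121876248 held the most counts. This gene has 8 transcripts in the table, 1 of them coding (XM_042381263.1), and 3 are members. The first, XR_006090735.1, had a mean of 7766 CPM in control larvae, 7809 CPM with methylnaphthalene and 8060 CPM with WAF, and made up 42.9%, 32.7% and 39.7% of the counts of the gene. The coding transcript had 7851, 10405 and 9715 CPM, which was 43.2%, 43.7% and 47.8% of the gene.

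The second, XR_006090739.1, had the largest spread between larvae of all 200 members by the SD divided by the mean, averaged over the 3 classes (116%). In methylnaphthalene larvae alone, its 88.9% was below the 93.4% of the lncRNA LOC121866097. The values of XR_006090739.1 were 1587, 237, 1290, 37.6, 6506 and 5333 CPM in control larvae, 2107, 1043, 40.8, 9606, 9751 and 9958 CPM with methylnaphthalene, and 87.4, 361, 1035, 232, 156, 7893 and 9177 CPM with WAF. Control larvae 5 and 6, methylnaphthalene larvae 4 to 6 and WAF larvae 6 and 7 were far above the other larvae of their own class, and the lowest larva of each class was under 100 CPM. The classes overlapped over nearly the whole range. These 7 larvae are also the last 7 of the 19 in the order in which the samples were deposited. The labels name no batch, and the part of this order in the values was not tested beyond a pair of added fits: the called members were the same in number with a term for these 7 larvae, and in the fit that left them out methylnaphthalene against control gave 2 in place of 1.

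XR_006090735.1 had 9046, 8912, 8832, 7919, 5940 and 5946 CPM in control larvae, 10682, 10113, 9740, 6328, 4287 and 5701 CPM with methylnaphthalene, and 7941, 8928, 7029, 10385, 9594, 6394 and 6150 CPM with WAF. Here control larvae 5 and 6, methylnaphthalene larvae 4 to 6 and WAF larvae 6 and 7 were the lowest of their classes. Neither transcript passed the test in any comparison, with adjusted p between 0.975 and 1.00 for XR_006090735.1 and between 0.913 and 1.00 for XR_006090739.1 (edgeR).

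The sum over all 8 transcripts of LOC121876248 moved far less, from 15653 to 26174 CPM over the 19 larvae. It was 18252 ± 1515 CPM in control larvae, 23769 ± 1711 CPM with methylnaphthalene and 20613 ± 2684 CPM with WAF. All 6 methylnaphthalene larvae lay above all 6 control larvae, but the difference did not pass the test on counts summed per gene (log2 fold change 0.42, adjusted p = 0.0747, edgeR). The third member, XR_006090738.1, had 90.2 ± 13.8, 63.9 ± 11.1 and 71.9 ± 27.0 CPM in the same order of classes. Kallisto divides reads among transcripts that share sequence, so the division between these transcripts is an estimate.

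The left-out lncRNA of LOC121857831 took 16.2%, 16.4%, 11.1%, 20.5%, 11.4% and 10.2% of the counts of control larvae 1 to 6. It took 22.1%, 17.9%, 26.4%, 8.42%, 7.44% and 8.68% with methylnaphthalene and 28.0%, 25.6%, 26.7%, 23.2%, 25.6%, 7.47% and 10.4% with WAF. Methylnaphthalene larvae 4 to 6 and WAF larvae 6 and 7 were the lowest of their classes, and so were control larvae 3, 5 and 6. The part of this transcript in the differences between larvae was not tested.

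**Figure D3:**
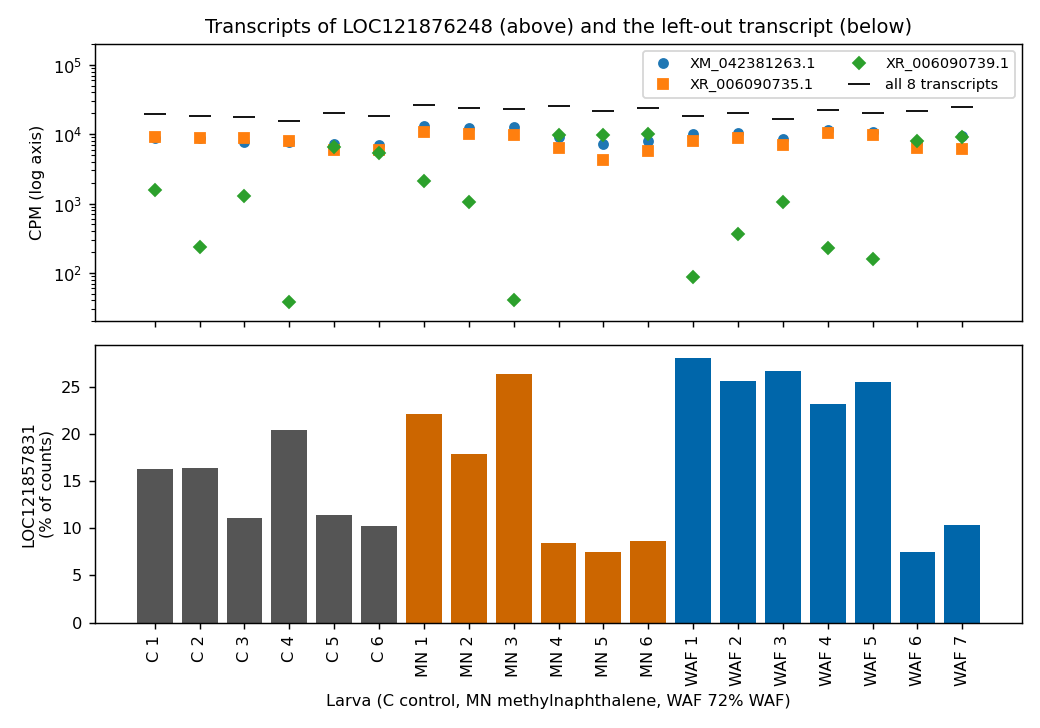
Upper panel, CPM on a log axis of the coding transcript XM_042381263.1, the members XR_006090735.1 and XR_006090739.1 and the sum of all 8 transcripts of LOC121876248 in each larva. Lower panel, share of counts (percent) of the left-out transcript of LOC121857831, in which methylnaphthalene larvae 4 to 6 and WAF larvae 6 and 7 are the lowest of their classes and XR_006090739.1 is highest within them.

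In other genes with 2 member transcripts, how widely the division of counts differed between larvae varied from gene to gene. It was wide in LOC121877374, a protein-coding gene in which XR_006090972.1 held between 12.5% and 84.3% of the counts of the gene over the 19 larvae, and in the lncRNA gene LOC121866461, in which XR_006088981.1 held between 25.4% and 98.5%. Both were chosen after their values were seen. XR_006086722.1, one of the 2 lncRNA transcripts of LOC121855150, held 75.7% of its gene in control larvae, 74.8% with methylnaphthalene and 76.3% with WAF, and XR_006086723.1 held the rest, with a range of 64.1% to 86.6% over the larvae for the first. The sum of both was 536, 456, 832, 413, 847 and 793 CPM in control larvae, 355, 345, 284, 905, 699 and 761 CPM with methylnaphthalene, and 250.4, 357, 302, 335, 327, 934 and 862 CPM with WAF. Control larvae 3, 5 and 6, methylnaphthalene larvae 4 to 6 and WAF larvae 6 and 7 were the highest of their classes. In LOC121876841, a protein-coding gene with 12 transcripts, XR_006090830.1 held 33.4%, 35.6% and 34.7% and XR_006090831.1 held 9.43%, 8.86% and 9.14% in the 3 classes, and the first ranged from 30.4% to 38.2% over the larvae. Among members that carry a protein name, the transcript of the myosin light chain 1 gene LOC121877269, a part of the muscle motor, had 125 ± 47.5, 96.4 ± 65.8 and 77.6 ± 57.7 CPM and was 1.15% to 1.42% of its gene in the class means. It was picked for its protein name and not by the rule for named transcripts. With counts summed per gene, LOC121877269 passed at adjusted p alone with methylnaphthalene against control (log2 fold change -0.66, adjusted p = 0.0489, edgeR). With WAF it did not (-0.54, adjusted p = 0.424, edgeR).

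The 20 rRNA members were moderately high in control larvae, from 34.3 to 852 CPM. They fell into 2 sizes of gene span, 5 of 1859 to 1872 bases and 15 of 4202 to 4471 bases. LOC121873636, LOC121859285 and LOC121861759, all of the longer size, were the highest, with 852 ± 288, 785 ± 299 and 759 ± 264 CPM in control larvae. LOC121858761 and LOC121877048 of the shorter size had identical counts in every larva and cannot be told apart, so they carry 1 measurement.

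The rRNAs moved together from larva to larva. The highest, LOC121873636, had 1141, 979, 700, 1182, 495 and 614 CPM in control larvae, 1372, 1038, 1686, 701, 693 and 494 CPM with methylnaphthalene, and 740, 643, 531, 782, 1715, 537 and 542 CPM with WAF. LOC121858761 had 652, 608, 439, 763, 257 and 368 CPM in control larvae, 641, 361, 914, 362, 304 and 240 CPM with methylnaphthalene, and 317, 234, 237, 369, 967, 323 and 211 CPM with WAF. In both, control larva 4, methylnaphthalene larva 3 and WAF larva 5 were the highest of their class.

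Over the 20 rRNAs, control larva 4 was the highest of its class in 15, methylnaphthalene larva 3 in 18 and WAF larva 5 in 19, while control larva 5 was the lowest in 19. Summed over the 20, WAF larva 5 had 12142 CPM and the other 6 WAF larvae between 3153 and 5178 CPM. The members made up 79.9% to 87.7% of the CPM of all 646 annotated rRNA transcripts. The smallest adjusted p among the 20 was 0.422 with methylnaphthalene against control, 0.993 with WAF against control and 0.440 between the exposed classes (edgeR's quasi-likelihood test). No single rRNA passed the test in any comparison. Copies of rRNA genes share sequence and a count can be divided among them, so the 20 do not count as 20 separate measurements. How rRNA was removed or selected against in the libraries is not given in the sources used here, and its part in these differences was not tested.

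The ratio of the summed longer to the summed shorter rRNAs was 2.06, 1.99, 1.96, 1.98, 2.23 and 2.18 in control larvae. It was 2.63, 2.98, 2.42, 2.44, 2.73 and 2.47 with methylnaphthalene and 2.62, 3.08, 2.74, 2.36, 2.19, 2.10 and 2.85 with WAF. All methylnaphthalene larvae lay above all control larvae, and 5 of the 7 WAF larvae did, with WAF larvae 5 and 6 inside the control range. No p is given for this sum over chosen members, and the values are a description.

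Differential expression of the members was then read from a fit across all 34195 transcripts that passed the filters, among them all 200 members. A transcript was called at an adjusted p under 0.05 together with an absolute log2 fold change above 1.5. Most members moved little. The absolute log2 fold change was under 0.5 for 177 members with methylnaphthalene, 172 with WAF and 170 between the exposed classes, and the medians over the 200 were -0.05, 0.00 and -0.08, beside 0.00, 0.01 and 0.02 over all transcripts tested. All members past a test in this fit of single transcripts were lncRNAs. This did not hold for counts summed per gene. There, 17 of the 190 genes passed at adjusted p alone with methylnaphthalene against control, beside 8.65% of all 18729 genes tested. Among them were the pseudogene LOC121867733 and the protein-coding genes LOC121877374 and LOC121877269 (adjusted p = 0.0303, 0.0285 and 0.0489, edgeR).

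Between methylnaphthalene and WAF, whose larvae did not choose the members, 3 of 200 members were called, all higher with methylnaphthalene. Of all tested transcripts 0.211% were called, every one of them higher with methylnaphthalene. At adjusted p alone there were 4, all higher, against 0.623% of all tested transcripts (0.605% higher). Larvae of the 2 classes did not overlap in the same number of members, against 0.442% of all tested (0.333% higher). None of the 200 protein-coding transcripts with the highest control means was called by edgeR's quasi-likelihood test. Of these, 15 had an unadjusted p under 0.05, beside 2750 of the 34195 transcripts tested, and 1 passed at adjusted p alone. A high control level let the members in, so nothing is read from their shares here either. Of the 3 called, LOC121863976 and LOC121863978 had means of 32.2 and 32.5 CPM with methylnaphthalene. Only LOC121863977 stayed a member when methylnaphthalene larvae chose.

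The 3 called were LOC121863976, LOC121863977 and LOC121863978, single-transcript lncRNA genes with consecutive gene numbers and spans of 1316, 1510 and 1211 bases. Whether they share sequence was not tested, so they are not read as 3 separate events. LOC121863978 had 137, 137, 107.3, 111.5, 46.6 and 60.2 CPM in control larvae, 15.1, 78.9, 16.6, 30.1, 33.0 and 21.5 CPM with methylnaphthalene, and 1.28, 1.80, 1.12, 0.61, 0.44, 10.2 and 3.93 CPM with WAF. Every WAF larva lay below every larva of the other classes, and methylnaphthalene and control larvae overlapped through methylnaphthalene larva 2. It was higher with methylnaphthalene than with WAF by 3.60 on the log2 scale (SE 0.62, adjusted p = 0.00886, edgeR).

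LOC121863977 had 143.6, 103.4, 87.7, 90.3, 48.8 and 54.5 CPM in control larvae, 25.2, 100.6, 35.5, 50.7, 55.4 and 47.6 CPM with methylnaphthalene, and 4.19, 2.25, 3.32, 3.01, 2.48, 19.5 and 11.4 CPM with WAF. The WAF larvae were again the lowest, without overlap. The log2 difference of methylnaphthalene over WAF was 3.03 (SE 0.48, adjusted p = 0.00459, edgeR).

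LOC121863976 had 95.4, 126, 76.9, 77.4, 56.2 and 57.7 CPM in control larvae, 16.0, 89.1, 15.8, 27.8, 29.6 and 14.6 CPM with methylnaphthalene, and 2.22, 1.63, 0.60, 0.42, 0.93, 11.2 and 5.07 CPM with WAF. In all 3 genes WAF larvae 6 and 7 were the highest of the WAF class and methylnaphthalene larva 2 the highest of its class. The log2 difference was 3.42 (SE 0.65, adjusted p = 0.0174, edgeR). With only the 2 classes compared in the fit, which leaves fewer larvae to estimate the spread, LOC121863977 alone was called, and LOC121863978 and LOC121863976 had adjusted p = 0.0704 and 0.133. LOC121863976 also missed the threshold without WAF replicate 1 (adjusted p = 0.0507) or WAF replicate 2 (0.0503).

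The fourth member past the test between the exposed classes was the lncRNA LOC121855408. It had 58.6, 58.4, 56.7, 51.8, 68.5 and 56.7 CPM in control larvae, 92.3, 93.8, 95.2, 131, 118.2 and 109.3 CPM with methylnaphthalene, and 50.3, 56.6, 62.9, 65.8, 57.9, 89.7 and 81.6 CPM with WAF. The lowest methylnaphthalene larva lay just above the highest WAF larva, which was larva 6. The log2 difference was 0.61 (SE 0.08, adjusted p = 0.00175, edgeR), below the fold change threshold.

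**Figure D4:**
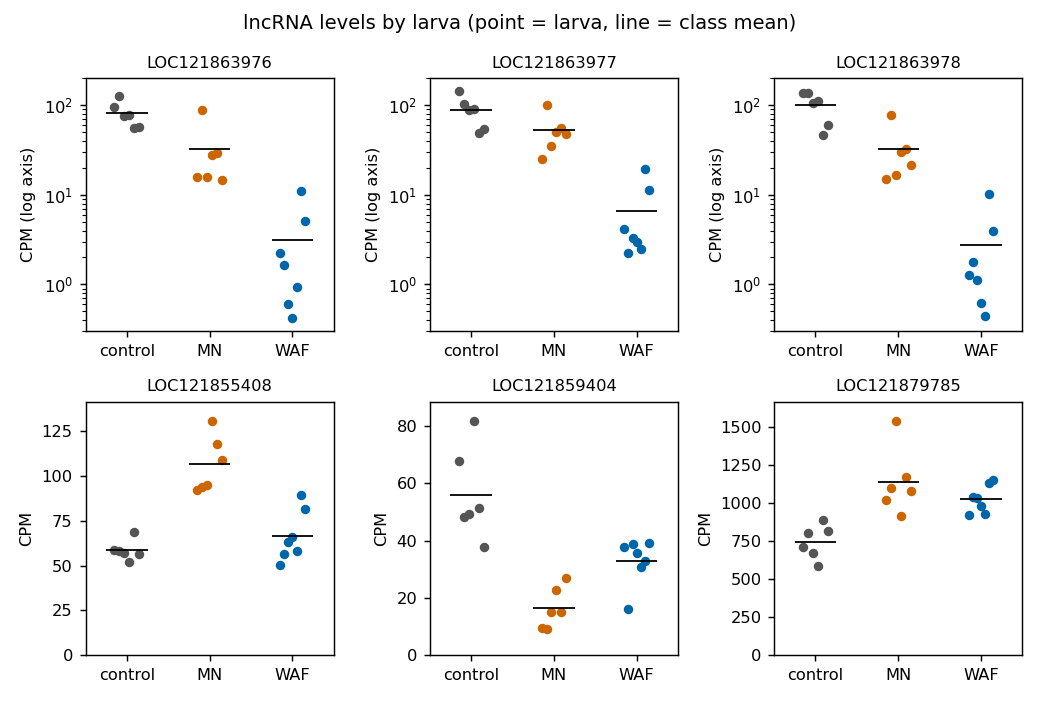
CPM of 6 lncRNAs in each larva (points) with the class mean (line) for control, methylnaphthalene (MN) and WAF, on a log axis in the upper row and a linear axis from 0 in the lower row. LOC121863976, LOC121863977 and LOC121863978 are lowest in all 7 WAF larvae, and LOC121855408 is highest in all 6 methylnaphthalene larvae.

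Against control, WAF gave 3 called members of 200, all lower and again LOC121863976, LOC121863977 and LOC121863978, beside 0.0497% of all tested transcripts (0.0468% lower). The count was also 3 at adjusted p alone, beside 0.076% (0.0614% lower). Larvae did not overlap in 5 members (4 lower, 1 higher), beside 0.36% (0.295% lower, 0.0643% higher). The members had to be high in control larvae to be chosen, so nothing is read from these shares. The log2 fold changes were -5.21 (SE 0.66, adjusted p = 0.00188) for LOC121863978, -3.77 (SE 0.49, adjusted p = 0.00188) for LOC121863977 and -4.73 (SE 0.68, adjusted p = 0.00660) for LOC121863976 in edgeR's quasi-likelihood test. In CPM the class means fell from 99.96 to 2.77, from 88.0 to 6.59 and from 81.7 to 3.15. With methylnaphthalene the same 3 genes had log2 fold changes of -1.62, -0.74 and -1.31 against control, none past the test (adjusted p = 0.248, 0.773 and 0.514, edgeR). Both sets of values share the control larvae.

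Methylnaphthalene against control gave 1 called member of 200, lower, beside 0.953% of all tested transcripts in either direction and 0.038% in that direction. With the last 7 deposited larvae left out there were 2, both lower. The 1 member was the lncRNA LOC121859404, with 67.7, 48.2, 49.1, 81.8, 51.4 and 37.6 CPM in control larvae, 9.58, 9.15, 14.9, 22.9, 14.9 and 26.9 CPM with methylnaphthalene, and 37.7, 15.9, 38.9, 35.6, 30.9, 32.8 and 39.0 CPM with WAF. Methylnaphthalene larvae lay below all control larvae, and WAF larvae overlapped both. Its log2 fold change was -1.80 (SE 0.29, adjusted p = 0.00219, edgeR) with methylnaphthalene and -0.67 (SE 0.27, adjusted p = 0.863, edgeR) with WAF.

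At adjusted p alone, 7 members passed with methylnaphthalene, 5 higher and 2 lower, beside 1.98% of all tested transcripts (1.81% higher, 0.167% lower). LOC121855408 rose by 0.90 on the log2 scale (SE 0.08, adjusted p = 1.56e-05, edgeR). LOC121879785, the tenth in control level, had 707, 806, 668, 584, 889 and 814 CPM in control larvae, 1018, 1100, 1541, 917, 1172 and 1078 CPM with methylnaphthalene, and 921, 1039, 1036, 978, 928, 1133 and 1151 CPM with WAF. All 13 exposed larvae lay above all control larvae, and the test passed with methylnaphthalene (0.69, SE 0.15, adjusted p = 0.0172, edgeR), though not without control larva 3 (0.0669) or 6 (0.0526) or with only the classes compared (0.0627). With WAF it did not pass (log2 fold change 0.60, SE 0.14, adjusted p = 0.262, edgeR). The difference between the exposed classes was 0.09 (SE 0.14, adjusted p = 0.946, edgeR).

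LOC121860892 fell by 0.62 on the log2 scale, from 119 to 155 CPM in control larvae to between 61.4 and 111.7 CPM with methylnaphthalene, without overlap (adjusted p = 0.0139, edgeR). It missed the threshold without TMM scaling of the library sizes (adjusted p = 0.106) and with the last 7 deposited larvae left out (0.0551). LOC121867813 rose by 0.36, from 43.8 ± 3.001 to 55.2 ± 9.19 CPM (adjusted p = 0.0219, edgeR), and stayed at adjusted p under 0.05 in 19 of 30 alternatives. Among the misses were the fits without control larva 2, 3, 5 or 6 or methylnaphthalene larva 4 or 5 (adjusted p from 0.0502 to 0.0778), without TMM (0.323) and with the last 7 deposited larvae left out (0.184). The other 2 were LOC121854303 (log2 fold change 0.35, adjusted p = 0.0275) and LOC121864660 (0.45, adjusted p = 0.0491). With counts summed per gene, 17 of the 190 genes of the members passed at adjusted p alone, 8 higher and 9 lower, beside 8.65% of all 18729 genes tested (7.3% higher, 1.35% lower). Control and methylnaphthalene larvae did not overlap in 10 members (2 higher, 8 lower), beside 3.14% of all tested transcripts (2.46% higher, 0.681% lower).

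The rule by control level leaves out transcripts that were low in control larvae and high in exposed ones. When the members were chosen by the WAF larvae in place of control, 179 of 200 were shared. The lncRNA LOC121855071, with 13.5, 211 and 35.1 CPM in control, methylnaphthalene and WAF larvae, then came in. It was called with methylnaphthalene against control (log2 fold change 3.97, adjusted p = 0.000337, edgeR).

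Between larvae of the same class, the median spread of the members lay below that of all tested transcripts and above that of the abundant mRNAs. The SD of CPM divided by the mean had a median over the 200 of 18.6% in control larvae, 25.4% with methylnaphthalene and 24.97% with WAF. The same measure was 13.98%, 21.9% and 18.7% over the 200 protein-coding transcripts with the highest control means and 44.9%, 51.3% and 58.0% over all transcripts tested, most of which had fewer counts. Among the kinds, rRNA had the largest median spread (34.99%, 51.5% and 69.8%) in each class. The medians were 17.6%, 24.4% and 23.0% for lncRNA, 16.3%, 20.3% and 23.1% for noncoding transcripts of protein-coding genes and 20.8%, 23.0% and 22.3% for the 4 pseudogenes, with no 1 order in all classes. These medians are a description of chosen transcripts and carry no test. The members and the protein-coding transcripts were not matched by level.

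**Figure D5:**
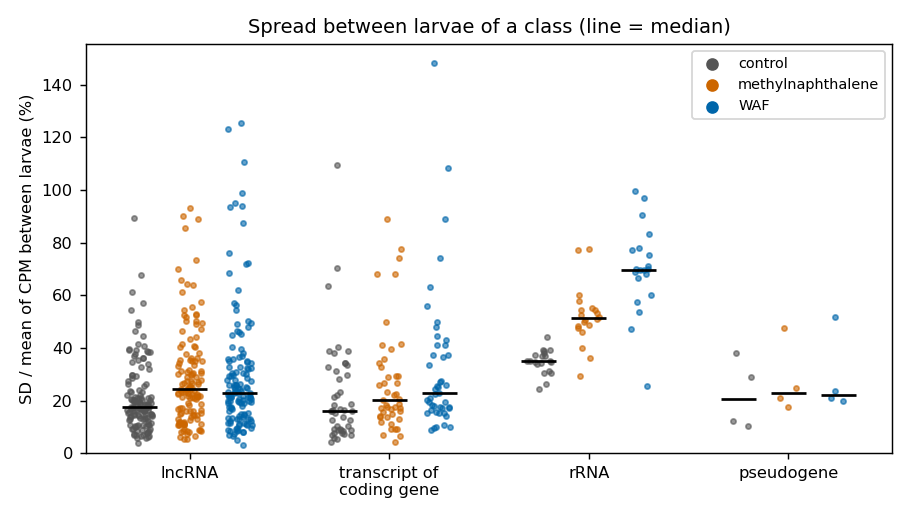
SD divided by the mean of CPM between larvae (percent, vertical), 1 point per member and class, by annotated kind, with the median as a line. The rRNA medians of 34.99%, 51.5% and 69.8% in control, methylnaphthalene and WAF larvae lie above those of the other kinds.

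The steadiest member by the same measure averaged over the 3 classes (4.78%) was the lncRNA LOC121868040, although in methylnaphthalene larvae alone its 5.36% was above the 4.47% of LOC121853169. It had 167 to 193.2 CPM in control larvae, 140 to 161 CPM with methylnaphthalene and 149 to 164 CPM with WAF. In CPM both exposed classes lay below all control larvae, but after TMM scaling the log2 fold changes were only -0.23 and -0.10 and did not pass (adjusted p = 0.651 and 0.993, edgeR). LOC121853169, a noncoding transcript of a protein-coding gene, came next with 56.0 ± 4.14, 44.4 ± 1.99 and 50.3 ± 5.04 CPM. LOC121864205, an lncRNA, had 49.1 ± 3.54, 44.1 ± 2.84 and 48.8 ± 4.45 CPM.

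Apart from XR_006090739.1, the least steady members by that average were the lncRNAs LOC121866117 and LOC121866097. LOC121866117 had 199, 117, 178, 411, 31.1 and 23.9 CPM in control larvae, 36.1, 56.4, 34.2, 204.5, 21.7 and 114 CPM with methylnaphthalene, and 29.0, 34.5, 25.6, 207, 37.8, 256 and 32.9 CPM with WAF. LOC121866097 had 331, 217, 296, 556, 75.1 and 94.1 CPM in control larvae, 87.3, 90.9, 88.7, 472, 53.0 and 245 CPM with methylnaphthalene, and 52.7, 99.2, 41.3, 363, 63.4, 292 and 68.2 CPM with WAF. Both were low in control larvae 5 and 6 and high in methylnaphthalene larvae 4 and 6 and WAF larvae 4 and 6.

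The highest larva exceeded the lowest of its class by more than a factor of 2 in 68 members among control larvae, 92 with methylnaphthalene and 100 with WAF, and by more than 5 in 6, 19 and 29 members. Single larvae recurred at the ends. Control larva 4 was the highest of its class in 61 members and the lowest in 60. Methylnaphthalene larva 3 was the highest in 51 and the lowest in 71. With WAF, larva 7 was the highest in 64, larva 1 the lowest in 61, and larva 6 the lowest in 59 and the highest in 36.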

How the data were processed

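RNA-seq counts of 19 whole larvae were analysed (6 control, 6 methylnaphthalene, 7 WAF). The authors deposited estimated counts (expected counts) from Kallisto per RefSeq transcript, without normalization, and 55.2% of the values carry decimals. All 46006 transcripts were matched to the RefSeq gene list of the GMGI_Hamer_2.0 assembly, which gave gene, kind and gene span but no scaffold name. The second deposited table, of Seq2Fun ortholog groups, holds proteins and was not used here. All columns matched the labels. CPM was computed on column totals. Counts were rounded, filtered (total of at least 4, and the 15% of transcripts with the smallest interquartile range removed), scaled by TMM and fitted in R 4.3.3 with edgeR 4.0.16 (quasi-likelihood, all 19 larvae, no covariates), with Benjamini-Hochberg adjustment over 34195 transcripts. The script was tested on simulated data. Each SE is the absolute log2 fold change divided by the square root of the quasi-likelihood F statistic. Summaries used Python 3.11.15 with pandas 2.3.3 and numpy 2.4.6.

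Named transcripts are the 10 highest in control larvae, up to 5 per comparison by smallest adjusted p (called and not overlapping first), the 3 most and 3 least steady, those at the edge of the rule, those of the 3 genes with most members, and the 15 highest rRNAs. The members and lists were chosen with earlier results of these data known. Alternatives were limma 3.58.1, the likelihood ratio test, DESeq2 1.42.0, other scalings, filters and member choices, the replicate number as a block, each larva left out and, added after the data were seen, the order of deposit. The p-values set differences between classes against the spread between these larvae. Counting error is the only error that depth sets, and the reads carry no molecular identifiers.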

Additional observations from a re-analysis of the deposited data

Results flagged for a closer look

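Single larvae stood apart from the rest of their class in 35 of 600 groups (200 members in 3 classes), or 5.83%, by a gap to the nearest larva that was large for the range of the class. Chance gives about 1 in 20. In 18 of the 35 the larva was WAF larva 5 as the highest. Among named transcripts these were rRNAs, with 1715 CPM of LOC121873636, 1671 CPM of LOC121859285, 1578 CPM of LOC121861759, 967 CPM of LOC121858761 and of LOC121877048, 1073 CPM of LOC121854173, 820 CPM of LOC121866712, 624.8 CPM of LOC121866299, 582 CPM of LOC121877144, 437 CPM of LOC121856895, 426 CPM of LOC121877128, 375 CPM of LOC121877518, 220 CPM of LOC121874299, 134 CPM of LOC121878696 and 131 CPM of LOC121871472. The rRNAs share sequence, so these are not separate events.

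Methylnaphthalene larva 3 stood apart as the highest for the rRNA LOC121877518 with 389 CPM, where the other 5 had 70.7 to 165 CPM. Methylnaphthalene larva 2 was the highest for LOC121863978 with 78.9 CPM (the others 15.1 to 33.0 CPM) and for LOC121863976 with 89.1 CPM (the others 14.6 to 29.6 CPM). WAF larva 6 was the highest for LOC121863978 with 10.2 CPM (the others 0.44 to 3.93 CPM). WAF larva 2 was the lowest for LOC121859404 with 15.9 CPM (the others 30.9 to 39.0 CPM).

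Among the transcripts already named for passing a test, the effects of both exposures against control differed for 4 lncRNAs. The values are those of the methylnaphthalene against WAF test given above (edgeR's quasi-likelihood test, log2 scale) and are not a further test. The differences were 3.60 for LOC121863978 (adjusted p = 0.00886), 3.03 for LOC121863977 (0.00459), 3.42 for LOC121863976 (0.0174) and 0.61 for LOC121855408 (0.00175). No methylnaphthalene larva overlapped a WAF larva in any of the 4.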

How the results depend on the processing

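Of 360 alternatives for the log2 fold changes of the transcripts named for a test, 340 kept direction and side of the threshold, 20 lost the threshold and none turned. The called members numbered 1 (methylnaphthalene against control), 3 (WAF against control) and 3 (methylnaphthalene against WAF) with limma, the likelihood ratio test, DESeq2, no TMM, TMM without the left-out transcript, no filter, filterByExpr and counts summed per gene. Methylnaphthalene against control gave 7 with no fold change threshold, 2 with members chosen by WAF larvae and 0 with 100 members (LOC121859404 is not among them). That 0 is edgeR's count for the 100. Over all 200 members, 36 had an unadjusted p under 0.05 in edgeR's quasi-likelihood test, beside 3433 of the 34195 transcripts tested. WAF against control gave 1 with members chosen by methylnaphthalene larvae, since fewer of the 3 genes were then members. Methylnaphthalene against WAF gave 1 with only the classes compared. Chosen after seeing the data, a term for the last 7 larvae in the order of deposit gave 1, 3 and 3, and leaving these larvae out gave 2, 3 and 3. With each larva left out the counts were 1 to 1, 3 to 3 and 2 to 3.

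The median summed level was 77718 CPM in control, 78563 CPM in methylnaphthalene and 85336 CPM in WAF larvae on totals without the left-out transcript (main 66890, 67773 and 64576 CPM), and 71352 CPM in WAF larvae with TMM. Left-out larvae moved it to between 64713 and 69067, 64471 and 71075, and 64038 and 65090 CPM. The median spread was 21.6% in control larvae with TMM and 28.5% with methylnaphthalene over 100 members, and between 16.9% and 19.9%, 23.9% and 26.1%, and 21.1% and 26.3% with larvae left out.

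The classes share replicate numbers, but the labels name nothing shared, and same-numbered larvae deviated together with r from -0.15 to 0.25, so the numbers were not taken as pairs. With the replicate block the counts stayed 1, 3 and 3, and of the named tests LOC121867813 lost the threshold (log2 fold change 0.36, adjusted p = 0.0623, edgeR).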

Other observations

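Outside the comparisons, the members' counts can be followed by kind. The 131 lncRNAs together gave between 12959 and 16383 CPM in all 19 larvae, the narrowest range of the kinds relative to its level. The 45 noncoding transcripts of protein-coding genes gave between 10644 and 19412 CPM and the 4 pseudogenes between 24114 and 43775 CPM, both set mostly by LOC121876248 and LOC121871017. The 20 rRNAs gave between 3147 and 12142 CPM.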
